A study of Schizosaccharomyces pombe with 2 samples.

Results

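The genes *cig2*, *cdc10* and *pyp3* act in the mitotic cell cycle, and are 3 of the 4997 features of a DNA microarray on which nitrogen-starved *lsg1Δ* and wild-type fission yeast were compared. They were chosen by their normalized intensity in the table deposited by the authors, where each had under 0.5 times its wild-type value in *lsg1Δ*, so their fall is a description and no test of it is given. The array files carry no gene names. Each gene was found by matching its ratio in the list of lowered genes that accompanies the study to 1 feature of the deposited table, within a tolerance of 5e-05, and only the 64 genes of that list can be named in this way. The features are TI4896S003882 for *cig2* (SPAPB2B4.03), TI4896S002011 for *cdc10* (SPBC336.12c) and TI4896S004931 for *pyp3* (SPAC11E3.09).

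The strain JT659 carries *lsg1::kanR*, in which a drug-resistance cassette replaces the open reading frame of *lsg1*, the gene for the γ subunit of the RNA polymerase II CTD kinase CTDK-I. It was set against the wild-type strain JY450. Both strains are homothallic haploids of the genotype *h90 ade6-M216 leu1*. Both were starved of nitrogen in liquid minimal medium for 2.5 h, although the treatment label of both samples gives 2 h. No unstarved culture was hybridized, so the response of the genes to starvation itself is not measured. Each strain has 1 single-color array, and no p-value can be given. An effect of the deletion and a chance difference of culture or hybridization cannot be told apart.

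Fission yeast starved of nitrogen leave the mitotic cycle and arrest in G1, the state from which they can mate. The paper reports, from diploid cells, that this arrest began later in *lsg1Δ* than in wild-type. How far the haploid cultures used here had arrested at 2.5 h is not given, and its part in the ratios was not tested. The passage from G1 into S phase rests on MBF, a transcription factor that switches on genes of DNA replication, and on cyclins bound to the kinase Cdc2. Cdc10 is the subunit common to all forms of MBF. Cig2 is a B-type cyclin that drives S phase, its gene is itself a target of MBF, and it is known to restrain conjugation in fission yeast. Pyp3 is a protein tyrosine phosphatase that, beside the better known Cdc25, removes the inhibitory phosphate from Cdc2 at the entry into mitosis.

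Transcripts of all 3 genes were lower in *lsg1Δ* cells. The levels given here are on the log2 scale after background correction and quantile normalization of the scanned intensities, summarized over the 7 probes of a gene by median polish, and a ratio is the level in *lsg1Δ* minus that in wild-type. The level of *cig2* was 11.20 in *lsg1Δ* and 12.72 in wild-type, a log2 ratio of -1.52 (SD 0.63 over 7 probes), or 2.86-fold lower. For *cdc10* the level was 11.49 in *lsg1Δ* and 12.38 in wild-type, a log2 ratio of -0.89 (SD 0.12), or 1.86-fold lower. For *pyp3* it was 11.13 in *lsg1Δ* and 12.05 in wild-type, a log2 ratio of -0.92 (SD 0.14), or 1.89-fold lower. The SD is a technical spread among probes of the same hybridizations and says nothing of how cultures vary. By this processing *cig2* alone of the 3 lay past 2-fold, as did 53 of all 4997 features (1.06%) in the lower direction and 17 (0.340%) in the higher direction. This contrast chose the genes, so nothing is read from their count.

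In the table of normalized intensities deposited by the authors, all 3 genes were past 2-fold by the rule that chose them. Of all its features, 1.28% were lower by as much and 0.440% higher. *cig2* had 1486.32 in *lsg1Δ* and 3824.19 in wild-type, a log2 ratio of -1.36. *cdc10* had 1588.81 in *lsg1Δ* and 3255.93 in wild-type, a log2 ratio of -1.04, close to the threshold. *pyp3* had 1219.4 in *lsg1Δ* and 2748.6 in wild-type, a log2 ratio of -1.17. The features that enclose the threshold in that table were SPAC27D7.10c at -1.005 inside it and the unnamed TI4896S003715 at -0.995 outside it. Whether *cdc10* and *pyp3* are called past 2-fold therefore depends on the processing, while *cig2* was past it in both.

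**Figure D1:**
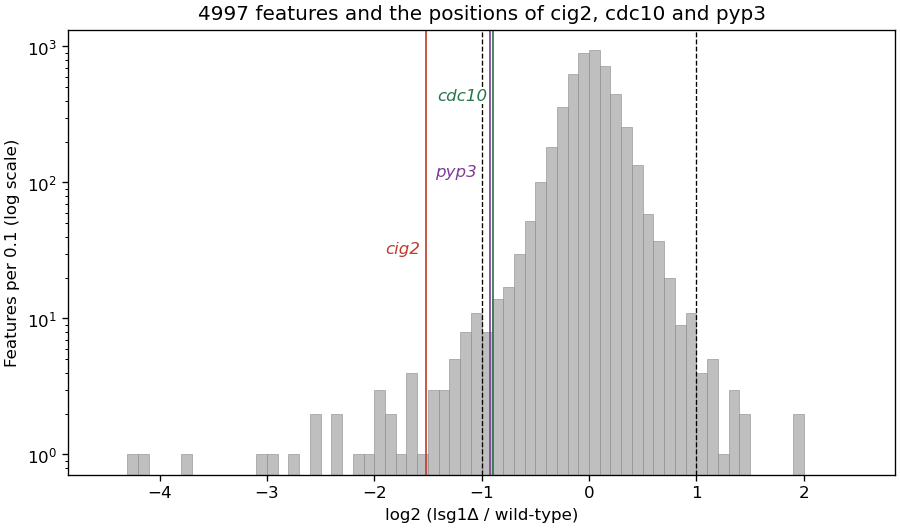
Histogram of the log2 ratio of *lsg1Δ* over wild-type for all 4997 features (x axis), with the number of features per interval of 0.1 on a logarithmic y axis. Dashed lines mark 2-fold in either direction, and the colored lines place *cig2* at -1.52, *pyp3* at -0.92 and *cdc10* at -0.89, in the lower tail.

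Counted from the lowest ratio, *cig2* was at place 23, *pyp3* at place 59 and *cdc10* at place 62 of 4997. The median ratio over all features was 0.01, and 95.6% were within 1.5-fold of wild-type. By ratio, the named gene next below *cig2* was *mam2*, the P-factor receptor gene, at -1.60. The one next above was *mam4*, an enzyme gene of M-factor maturation, at -1.46. Next above *cdc10* was *byr1*, the MAP kinase kinase gene of the mating pathway, at -0.88, and next below it SPAC9E9.01 at -0.91. Next below *pyp3* was SPBP4H10.12 at -0.94, and next above it SPAC27D7.09c at -0.92. Likeness here is the difference of a single ratio over 2 arrays, and each of these neighbors lay within the probe SD of its gene. Only genes of the study's list of lowered genes have names, so unnamed features may lie nearer, and nothing is read from which genes these are.

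All 7 probes were lower in *lsg1Δ* for each of the 3 genes. Over all features, every probe was lower for 16.9%. Each probe is printed at 2 spots, so a gene has 14 spots per array, and all 14 were lower in *lsg1Δ* for each gene. For every probe of the 3 genes, the normalized spots of *lsg1Δ* lay below those of wild-type without overlap, which was the case for all probes of 6.06% of the features. Duplicate spots share RNA, labeling and array and are not replicates, and the genes were chosen on these same arrays, so nothing is read from this separation. The median absolute difference between the ratios of the duplicate spots was 0.14 for *cig2*, 0.10 for *cdc10* and 0.21 for *pyp3* on the log2 scale, against 0.17 over all probes of the array.

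*cig2* is covered by probes from position 121 to position 1135 of its target, the position being the one the array files give. The probe at 121 had an intensity, as the mean of its spots before normalization, of 705.5 in *lsg1Δ* and 2425 in wild-type. The probe at 352 had 3347.5 in *lsg1Δ* and 10606 in wild-type. The probe at 585 had 5485 in *lsg1Δ* and 11185.5 in wild-type. All of these were lower in *lsg1Δ*, as were the remaining probes. The probe at 713 had 7095.5 in *lsg1Δ* and 17512 in wild-type, and the probe at 928 had 2583 and 7847.5 in the same strains. The probe at 997 had 2345 in *lsg1Δ* and 7194.5 in wild-type. The last probe, at 1135, was dim in both strains, with 269 in *lsg1Δ* and 511.5 in wild-type.

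The background level was the intensity that the dimmest 5% of spots did not exceed, 912 in *lsg1Δ* and 1108.65 in wild-type. The *cig2* probe at 1135 was under it on both arrays and gives no usable ratio, although it is counted among the 7 lower probes above. The probe at 121 was above it in wild-type only, so that its fall has only a lower bound. On the normalized scale, with *lsg1Δ* set to the lowest normalized level of a probe above background, that bound was 3.96-fold. It depends on the background correction and does not bound the fall before it. The uncorrected intensities of this probe, 705.5 in *lsg1Δ* and 2425 in wild-type, differ by a smaller factor. The other 5 probes were above it on both arrays and carry the measured fall, with log2 ratios of -1.54 at position 352, -0.84 at 585, -1.12 at 713, -1.52 at 928 and -1.55 at 997. Their median was -1.52, as over all 7 probes, and their SD was 0.32. Both probes of smaller fall, at 585 and 713, thus stood next to each other in the middle of the target. They were also the brightest probes of the gene on both arrays, so position and brightness cannot be told apart. The duplicate spots of the probes at 585 and 713 differed by 0.14 and 0.03 in log2 ratio. The probe at 585 lay above the one at 352 by 0.70. Over all 4997 features the median probe SD was 0.15 and the SD of *cig2* over its 7 probes was at place 117 from the widest. That SD includes the probes at 121 and 1135, which were not above background in *lsg1Δ*.

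**Figure D2:**
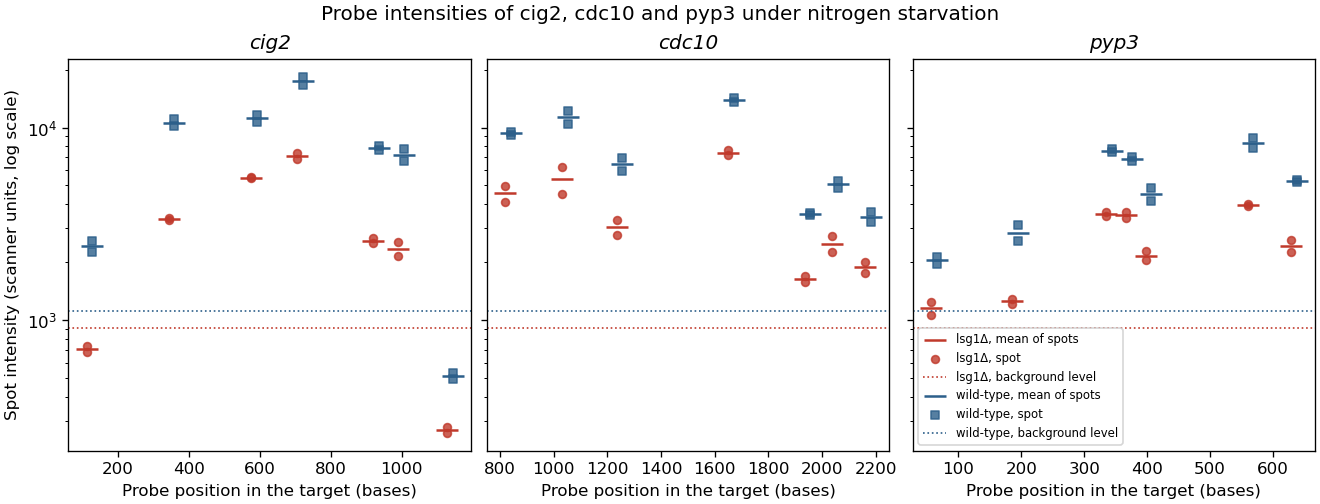
Spot intensity before normalization (y axis, scanner units, logarithmic) against the position of the probe in the target in bases (x axis) for *cig2*, *cdc10* and *pyp3*. Red circles are the spots of *lsg1Δ* and blue squares those of wild-type, the bars are the means of the 2 spots, the dotted lines mark the background level (912 for *lsg1Δ*, 1108.65 for wild-type), and the markers of the strains are set slightly apart. At every position the *lsg1Δ* spots lie under the wild-type spots, and only *cig2* has probes under the dotted line of their own strain.

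*cdc10* is covered from position 829 to position 2172, so no probe reads the first part of its target. Its probe intensities ran from 1630 to 7396 with a median of 3024 in *lsg1Δ*, and from 3446.5 to 13867 with a median of 6475 in wild-type. All 7 probes were above background on both arrays. The log2 ratios of the probes, in the order of position, were -0.86 at 829, -0.91 at 1041, -0.95 at 1245 and -0.71 at 1662. Further along they were -1.08 at 1946, -0.89 at 2049 and -0.75 at 2172. Thus 1 of 7 probes passed 2-fold by itself, and the largest and the smallest fall did not lie at the ends of the target. The probe at 2049 had the least even duplicate spots of the gene, with log2 ratios of -1.13 and -0.66.

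*pyp3* is covered from position 61 to position 633. Its probe intensities ran from 1157 to 3955 with a median of 2423.5 in *lsg1Δ*, and from 2047.5 to 8304 with a median of 5265.5 in wild-type. All 7 probes were above background on both arrays, the dimmest being the one at position 61, with 1157 in *lsg1Δ* and 2047.5 in wild-type. The log2 ratios of the probes were -0.81 at 61, -1.23 at 190, -0.92 at 340 and -0.80 at 371. The others were -0.94 at 402, -0.89 at 564 and -1.005 at 633. A total of 2 of the 7 probes passed 2-fold by themselves. The duplicate spots of the dimmest probe differed most, with log2 ratios of -0.55 and -1.07.

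**Figure D3:**
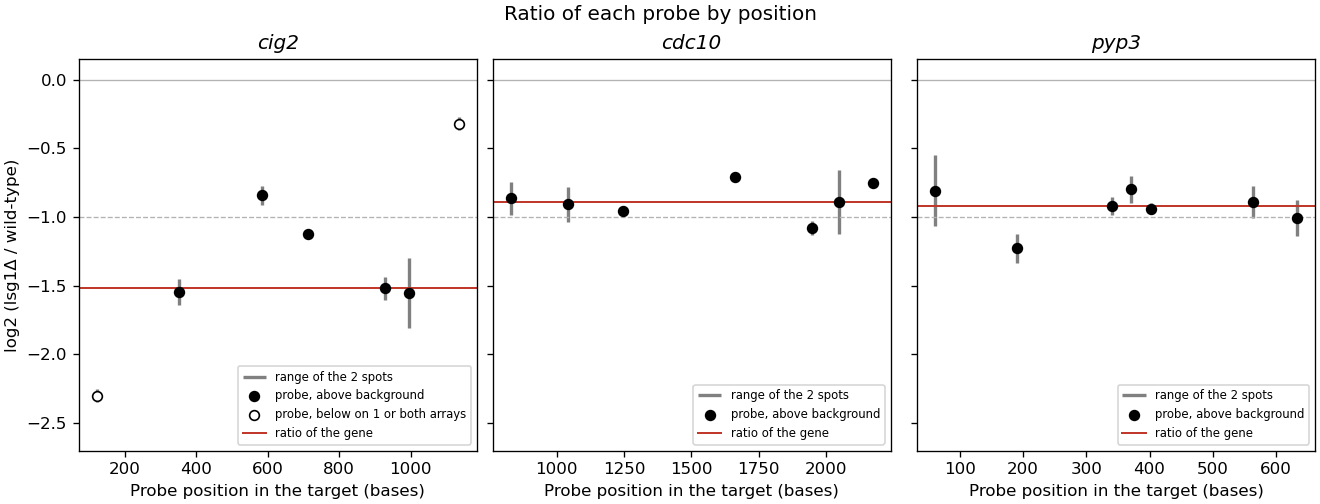
Log2 ratio of *lsg1Δ* over wild-type (y axis) of each probe against its position in the target in bases (x axis). Points are probes, open where the probe was not above background on at least 1 of the arrays, gray bars span the ratios of the 2 spots, the red line is the summarized ratio of the gene, and the dashed line marks 2-fold. The probes of *cdc10* (SD 0.12) and *pyp3* (SD 0.14) lie close to the red line. Those of *cig2* spread more widely, with an SD of 0.63, or 0.32 over the 5 above background on both arrays.

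The falls of *pyp3* and *cdc10* differed by 0.03 on the log2 scale, less than the SD of either, and 6 of the 7 *pyp3* probes lay within the range of the *cdc10* probes. In the deposited table they differed by 0.14. The ratio of *cig2* was lower than that of *cdc10* by 0.63, and 5 of its 7 probes lay below every *cdc10* probe. The 2 *cig2* probes that did not were the one at 585 and the dim one at 1135. In the deposited table *cig2* was lower than *cdc10* by 0.33. Against *pyp3* the ratio of *cig2* was lower by 0.60, with 4 of 7 probes below every *pyp3* probe, but by 0.19 in the deposited table. With 1 array per strain these differences between genes have no test.

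The median intensity over the 69954 spots of an array was 5685.5 in *lsg1Δ* and 6737 in wild-type. Regional unevenness of the arrays was examined around each spot. Among spots of other features within 15 grid units, the median log2 ratio ran from -0.20 to 0.14 around the spots of *cig2*, from -0.20 to 0.13 around those of *cdc10* and from -0.14 to 0.06 around those of *pyp3*. The part of such unevenness in the falls was not tested. The probes of *lsg1* ranged from 176.5 to 212.5 in *lsg1Δ*, with 0 of 7 above background. In wild-type they ranged from 1547.5 to 12362, with 7 of 7 above background. The *lsg1* feature was itself found by its lowered ratio between these arrays. Its direction was therefore fixed in advance and does not test the strain label.

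Of 31 genes listed in 5 groups around these roles, *cig2*, *cdc10* and *pyp3* are the 3 that can be named on this array. *cdc10* was named of 7 MBF subunits and regulators such as *res1*, *res2* and *nrm1*. *cig2* was named of 10 MBF targets, which include the replication initiator genes *cdc18* and *cdt1*, and of 5 G1 and S phase cyclins and their inhibitors such as *rum1*. *pyp3* was named of 9 genes that control tyrosine phosphorylation of Cdc2, *cdc25* and *wee1* among them, and of the 3 members of its phosphatase family. The other 28 have features without a name here, if any, and their levels are not analysed here. Since names come only from a list of genes lowered past 2-fold, the counts say nothing of the direction of these groups. By RefSeq gene order (assembly ASM294v3), *cig2* and *pyp3* lie on chromosome I and *cdc10* on chromosome II. Of the 5 protein-coding genes on each side, none has a name on this array for *cig2* or *cdc10*, and 1 has for *pyp3*, the mating-specific transcription factor gene *map1*, with 2 genes between them. Names come only from genes lowered past 2-fold in the deposited table, as were 1.28% of all features. Nothing is read from this count. *map1* had a log2 ratio of -2.12 (SD 0.60 over 7 probes).

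**Figure D4:**
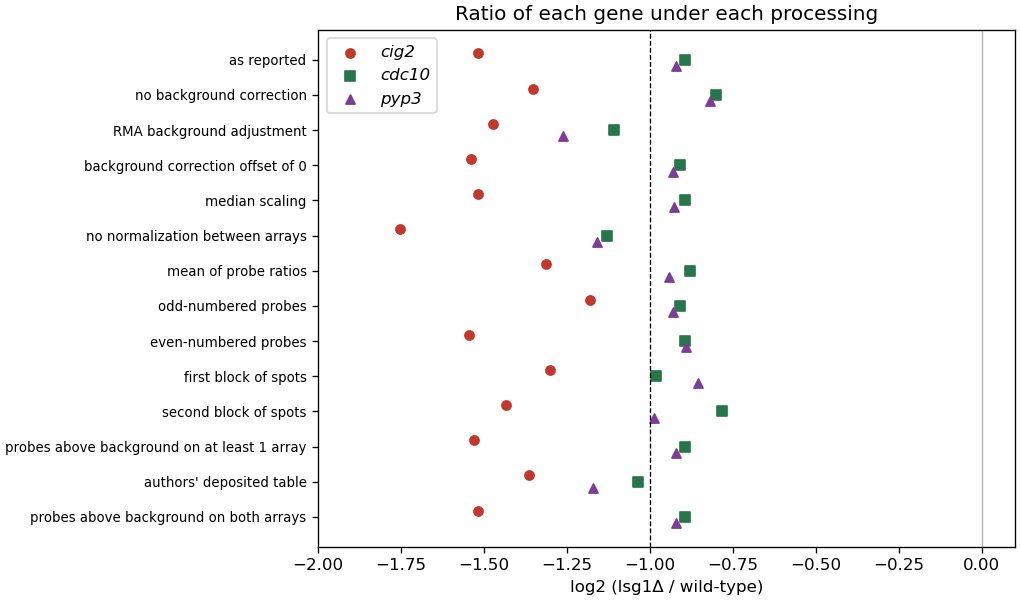
Log2 ratio of *lsg1Δ* over wild-type (x axis) of *cig2* (circles), *cdc10* (squares) and *pyp3* (triangles) under each way of processing the arrays (rows). The dashed line marks 2-fold: *cig2* is past it in every row, between -1.75 and -1.18, whereas *cdc10* and *pyp3* are past it in 3 rows each.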

How the data were processed

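RNA of 1 nitrogen-starved culture of each strain, *lsg1Δ* and wild-type, was hybridized to 1 Cy3 array each. Roche Applied Science scanned the arrays for the authors, and the deposited scanner files give a linear intensity per spot without any background reading. The authors also deposited a table of normalized linear intensity, 1 value per feature, with medians of 4026.31 for *lsg1Δ* and 4109.88 for wild-type. The sources used here do not state how it was normalized. Its second 4997 rows repeat the first and were not used. Rows were assigned to features in sorted order of their identifiers. So assigned, the table correlated with the levels computed here at a Pearson r of 0.98 across features in either strain (log2 scale).

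Processing of the scanner files in R 4.3.3 used limma 3.58.1: normexp background correction with an offset of 50, quantile normalization over all spots, the mean of the 2 spots of a probe and median polish over probes. A probe brighter than the dimmest 5% of spots on the same array was taken as above background. The steps were also run on arrays simulated from the wild-type array with known changes. These carried the noise of duplicate spots only, so they do not decide the 2-fold calls of *cdc10* and *pyp3*. Other steps used numpy 2.4.6, pandas 2.3.3 and matplotlib 3.10.9. With 1 array a strain no test was possible, and precision is limited by the number of arrays. Symbols come from the study's list of lowered genes and RefSeq. The genes and lists were chosen with earlier results of these data known. Genes named are *cig2*, *cdc10*, *pyp3*, *lsg1*, list members with a name, the named genes next to each gene by ratio, and the features at the 2-fold threshold. *map1* was added after its value was seen. No probe sequence was used here.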

Additional observations from a re-analysis of the deposited data

How the results depend on the processing

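No paired analysis was possible because a single array per strain leaves nothing to pair. Under 20 alternatives for each gene, among them each probe left out in turn and 1 chosen after seeing the data (probes above background on both arrays), none of the 3 ratios changed sign. All 20 values of *cig2* were past 2-fold, from -1.75 to -1.18, and within its probe SD of 0.63, which includes both probes not above background in *lsg1Δ*. By the SD of 0.32 over the other 5 probes, the value with odd-numbered probes, -1.18, lay outside. For *cdc10* and *pyp3*, 17 of 20 lay within the probe SD and under 2-fold. The exceptions were the RMA background adjustment (-1.11 for *cdc10*, -1.26 for *pyp3*), the deposited table (-1.04 and -1.17 for the same genes) and no normalization between arrays (-1.13 and -1.16). The last moves the median of all features to -0.20, and relative to it the values are -0.93 and -0.96. For the RMA adjustment and the deposited table the cause was not tested. Leaving out each probe gave -1.53 to -1.32 for *cig2*, -0.90 to -0.88 for *cdc10* and -0.93 to -0.91 for *pyp3*. A median over 7 probes moves little when 1 is left out. With 5 of 7 *cig2* probes past 2-fold, this could not bring *cig2* under it. All probes of *cdc10* and *pyp3* were above background, so the alternatives that drop dim probes could only return their reported values. The counts out of 20 therefore do not measure robustness. Each block of spots alone gave *cig2* -1.30 and -1.43, both smaller falls than with the blocks averaged. Without normalization 81 features were lower past 2-fold and 8 higher. With no background correction 6 were higher, and with the RMA adjustment 26. Low signal limits *cig2* most, since 2 of its 7 probes were not above background in *lsg1Δ*.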
